A study of Mus musculus with 2 samples.

Results

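The proteasome genes described here are all genes on the arrays whose symbol marks a proteasome subunit, activator, inhibitor or assembly factor, that is Psma, Psmb, Psmc, Psmd, Psme, Psmf or Psmg followed by its number. They were found by matching the RefSeq accession of each probe to a gene symbol. The rule gave 50 of the 22909 named genes, read by 76 of 56593 gene probes, and 48 of the 50 had a measurable value. The symbol rule also took in Psmc3ip, a partner of meiotic recombinases, and Psme3ip1, a protein that binds PA28 gamma, neither of which is a proteasome subunit. Psme2, which encodes PA28 beta, had no probe, whereas Psme2b, a near-identical retrocopy of it, had 2 probes that cannot be assumed to tell the copies apart.

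RNA of whole colon was measured on 2 one-colour Agilent mouse arrays to ask how the loss of EP4, a receptor for prostaglandin E2 encoded by Ptger4, from the gut epithelium changes gene expression. The control mice carried Villin-Cre, and the EP4 cKO mice carried Villin-Cre together with homozygous EP4flox alleles, so that both genotypes expressed the recombinase. All mice were C57BL/6, 8 weeks old per the methods, and the labels name no treatment. Villin drives Cre in intestinal epithelial cells, so stromal, muscle and immune cells of the same tissue kept their receptor gene. Each array held RNA combined from 3 pools of colon. The methods give n = 3 for each genotype, but 1 array per genotype was analysed here. There is therefore no replicate, no spread between mice and no test, and each difference compares 2 arrays.

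The proteasome is the cell's main protease for proteins tagged with ubiquitin. Its 20S core is a barrel of alpha rings, which gate the entrance, around beta rings, which hold the cutting sites, and the 19S cap unfolds substrates and feeds them in. Interferon-gamma makes cells replace the catalytic beta subunits by the inducible Psmb8, Psmb9 and Psmb10 and produce the PA28 cap, a form called the immunoproteasome that yields peptides suited to MHC class I, and in the gut this form is known for its abundance in inflamed mucosa.

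Psmb9 and Psmb8 lie in the MHC class II region of chromosome 17, where the RefSeq order of neighbours was H2-DMb2, H2-DMb1, Psmb9, Tap1, Psmb8, Tap2, H2-Ob, H2-Ab1 and H2-Aa. Tap1 and Tap2 form the transporter that carries proteasome products into the endoplasmic reticulum. Psmb9 and Tap1 are transcribed away from each other from a shared stretch of 225 bases. The sequences are shown because these 3 genes had the largest differences among the genes of this peptide route, and because Psme1 is the remaining immunoproteasome gene whose start held an interferon motif. All are RefSeq sequences of GRCm38.p6, read 5′ to 3′ on the plus strand. In the sequence before the Psmb8 start (chr17:34197945-34198194) the capitals mark the letters of a GAS, the gamma-activated site. Between the starts of Psmb9 and Tap1 (chr17:34187331-34187555) they mark a GC box, and at the Psme1 start (chr14:55578493-55578522) the letters of an ISRE, the interferon-stimulated response element, whose first letter is base 10 of the transcript.
Psmb8: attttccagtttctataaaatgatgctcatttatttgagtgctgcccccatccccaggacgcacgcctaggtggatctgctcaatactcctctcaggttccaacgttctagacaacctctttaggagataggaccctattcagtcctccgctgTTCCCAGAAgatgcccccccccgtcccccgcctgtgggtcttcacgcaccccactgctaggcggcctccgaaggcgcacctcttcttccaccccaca
Psmb9 and Tap1: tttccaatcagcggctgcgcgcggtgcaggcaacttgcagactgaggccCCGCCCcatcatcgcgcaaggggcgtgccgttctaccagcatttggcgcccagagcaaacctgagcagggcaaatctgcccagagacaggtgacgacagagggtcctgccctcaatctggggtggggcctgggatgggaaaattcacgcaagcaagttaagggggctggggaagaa
Psme1: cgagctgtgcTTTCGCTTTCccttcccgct

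The motifs were searched on both strands of 32851 windows of 300 bases, from 250 before to 50 after each start, and 43 proteasome genes had a window. The letters of a GAS, TTCNNNGAA, stood in 8.30% of all windows and in those of 3 proteasome genes. These were Psmb8, with its first base 97 before the start, Psmd2 and Psmg1. The letters of an ISRE, searched as GAAA and GAAA with 2 bases of any kind between them, stood in 3.44% of windows and in those of Psmb3, Psmd4, Psmd9, Psme1 and Psmg4. The windows of Psmb9 and Psmb10 held neither set of letters. The antioxidant response element TGACNNNGC, the kind of site read by NRF1 and NRF2, was found in 12.4% of windows and in 6 proteasome genes, of which 4 were constitutive subunits and none was an immunoproteasome gene. The GC box GGGCGG stood in 35.7% of windows, in 15 of 26 constitutive subunits and in 3 of 5 immunoproteasome genes. In Psmd9 the antioxidant letters overlapped a GC box. The cyclic AMP response element TGACGTCA was found in 1.79% of windows and in 0 of the 43. Such a match describes letters and does not show that a factor binds there.

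The authors deposited the processed spot intensity of each array, which was scaled here to a trimmed mean of 2500 as in their methods and is called normalized signal. A gene was read by its brightest probe, and its log2 ratio is log2 of the signal on the array labelled EP4 cKO over that on the array labelled Villin-Cre. Of all gene probes, 45.4% were well above background in Villin-Cre and 51.6% in EP4 cKO, no spot was saturated, and 14679 genes had a value. The median log2 ratio of these genes was -0.10. For probes printed about 10 times on each array, the log2 ratio had a median SD of 0.035 between spots. This covers spotting error alone. Ptger4 did not show the genotype, since its probes gave 6227 and 5661 (log2 ratio -0.14) and 393 and 592 (0.59) in Villin-Cre and EP4 cKO, respectively. Whether these probes lie in the floxed part is not known. Stromal cells keep the gene, but their part in this signal was not tested, and the fibroblast markers described below were far lower in EP4 cKO. The paper reports the EP4 deletion by qRT-PCR in isolated colon crypts, not in the RNA of these arrays. The arrays alone do not show the genotype, so the groups are named by their labels.

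Among the 48 proteasome genes with a value, 3 had over 2-fold more signal on the array labelled EP4 cKO, and these were the inducible beta subunits Psmb8, Psmb9 and Psmb10. No proteasome gene was past 2-fold in the other direction. Over all genes, the share past 2-fold was 4.88% upward and 7.98% downward. These shares depended on the scaling, being 6.42% and 6.27% with the 75th percentile, 4.19% and 2.66% after normexp and quantile normalization, 7.63% and 4.82% after a loess correction, and 41.8% and 2.25% when the arrays were scaled to the E1A control spots. With no filter on dim probes they were 5.12% and 31.7%. Scaling to the E1A spots adds 1.07 to the log2 ratio of each probe above background on both arrays, so each negative ratio of smaller size given here is positive under it. Of the 48 genes, 42 had a log2 ratio above 0, where 36.3% of all genes did, and the median over the 48 was 0.25. The share of all genes above 0 was 48.9% with the 75th percentile, 53.4% after the loess correction and 93.0% with the E1A spots.

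Psmb8, the inducible beta5 subunit with chymotrypsin-like activity, had a normalized signal of 3331 in Villin-Cre and 32512 in EP4 cKO, a 9.76-fold difference (log2 ratio 3.29). Psmb9, the inducible beta1 subunit, gave 4451 and 39696, which was 8.92-fold (3.16). Both differed far more than any other proteasome gene and ranked 91 and 96 among the 14679 genes ordered from the highest log2 ratio. Psmb10, the inducible beta2 subunit, gave 81290.1 and 179612, or 2.21-fold (1.14). It was bright on both arrays, and its difference was the smallest of the 3 inducible catalytic subunits. In bulk tissue, more cells that express a gene and more RNA of it per cell cannot be told apart.

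PA28 alpha and beta form the interferon-inducible cap that opens the core without ATP. Psme1, which encodes PA28 alpha, gave 32105 in Villin-Cre and 54867 in EP4 cKO, a 1.71-fold difference (log2 ratio 0.77). The brighter Psme2b probe, which may read PA28 beta as well, gave 89689 and 173586 (0.95), and its second probe 19996 and 42214 (1.08). The higher signal was thus on the array labelled EP4 cKO for each of these 5 genes with a probe, Psme2 itself having none. Over the 4 immunoproteasome genes with a probe of their own the median log2 ratio was 2.15, a 4.44-fold difference, and with Psme2b in the place of Psme2 the median of 5 was 1.14, or 2.21-fold. None of the 31 constitutive subunits with a value had a log2 ratio above that of Psme1, the lowest of these genes.

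**Figure D1:**
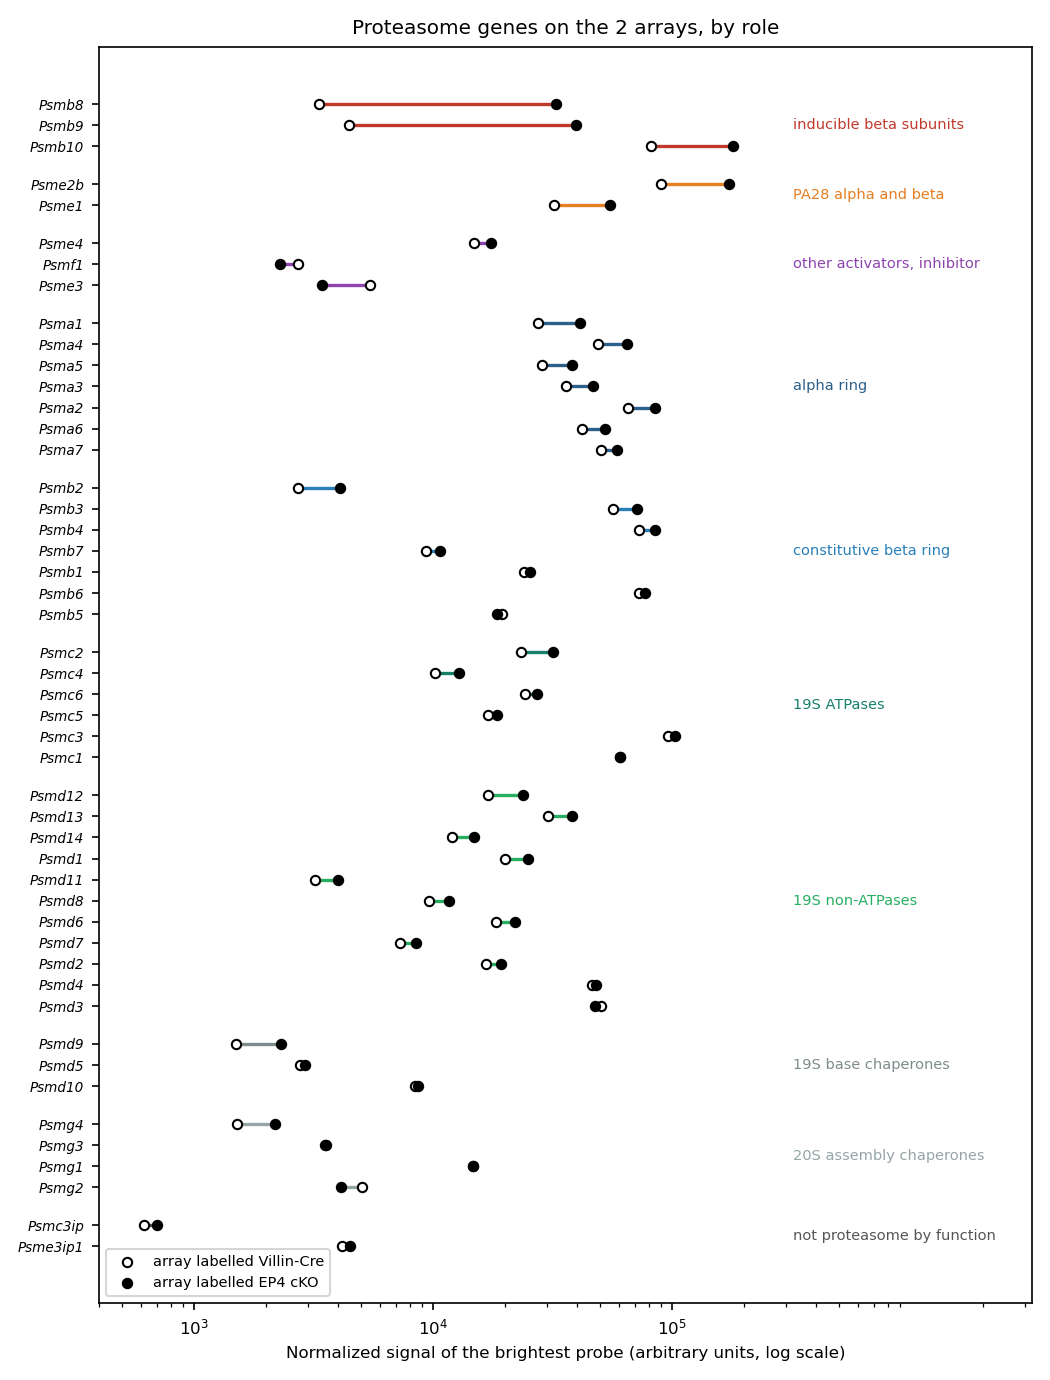
Normalized signal (arbitrary units, log scale) of the brightest probe of each of the 48 proteasome genes with a value, grouped by role. Open points are the array labelled Villin-Cre, filled points the array labelled EP4 cKO and a line joins the 2 values of a gene. The lines of Psmb8 (3331 to 32512) and Psmb9 (4451 to 39696) are the longest, and those of the constitutive subunits are short.

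At each catalytic position the inducible subunit can be set beside the constitutive one that it replaces. Psmb5, the constitutive beta5 subunit, gave 19482 in Villin-Cre and 18421 in EP4 cKO, a log2 ratio of -0.08 that turned to 0.08 with the 75th percentile and 0.03 with a trimmed mean over all spots. Psmb6, the constitutive beta1 subunit, gave 72885 and 77034 (0.08), with the same log2 ratio of 0.08 from its second probe. Psmb7, the constitutive beta2 subunit, gave 9343 and 10720.3 (0.20). The log2 ratios of these 3 subunits thus lay between -0.08 and 0.20, or between 0.99 and 1.27 with the E1A spots. The log2 ratio of Psmb8 exceeded that of Psmb5 by 3.37, so the signal of the inducible subunit relative to its counterpart was 10.3-fold that of the control in EP4 cKO. For Psmb9 against Psmb6 the log2 ratios differed by 3.08, or 8.44-fold. For Psmb10 against Psmb7 they differed by 0.95, or 1.93-fold. A change in the scaling factor of an array leaves these differences as they are.

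The constitutive subunits of the core and cap moved little and mostly in 1 direction. Of 33 listed, 31 had a value, all within 0.6 of 0 on the log2 scale. Their median was 0.29, a 1.22-fold difference, and stood 0.39 above the median of all genes. A log2 ratio above 0 was found for 29 of the 31 (93.5%), where 36.3% of all genes had one, and no subunit passed 2-fold. With the E1A spots these shares were 100% and 93.0%, and most subunits then passed 2-fold. The direction of this median held under each setting tried, with a range of 0.26 to 1.36, and its distance from the median of all genes was 0.30 to 0.63. The difference between the immunoproteasome median and the constitutive median was 1.86 with the 4 genes and 0.86 with Psme2b in the place of Psme2.

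**Figure D2:**
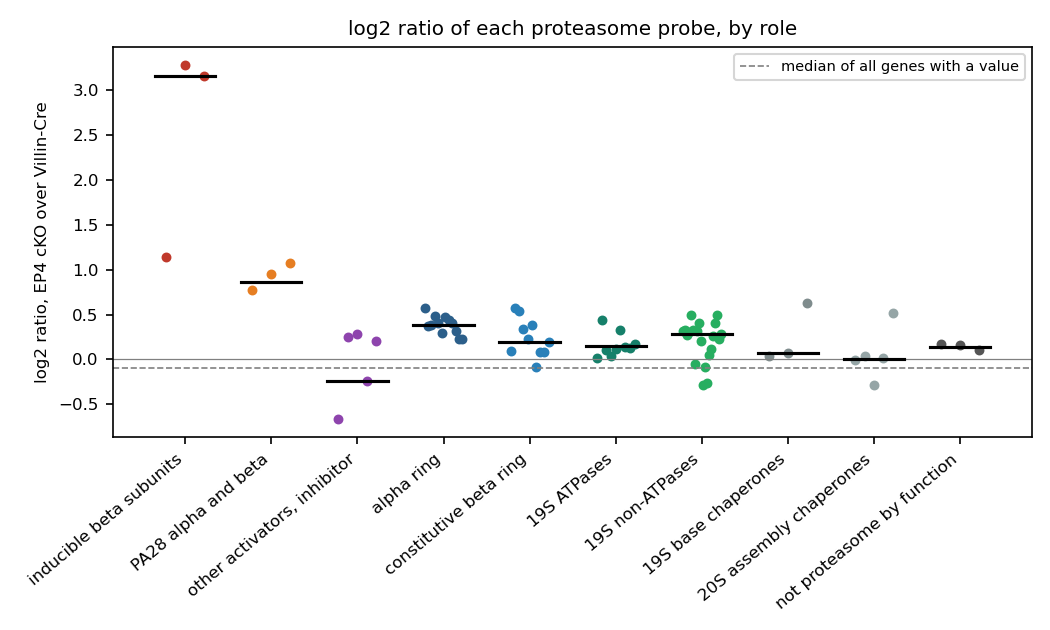
Log2 ratio (EP4 cKO over Villin-Cre) of every proteasome probe well above background, by role. Each point is 1 probe, the black bar is the median over the genes of the group, each read by its brightest probe, and the dashed line is the median of all genes (-0.10). The inducible beta subunits (1.14 to 3.29) stand above all other groups, and the alpha ring lies between 0.22 and 0.58.

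The alpha ring holds the gate of the core and had the smallest spread of log2 ratios (SD 0.11 between genes) of the 4 groups of constitutive subunits. All 7 alpha subunits with a value were higher on the array labelled EP4 cKO, with a median log2 ratio of 0.38. Of all genes 36.3% were higher, or 93.0% with the E1A spots. The largest was that of Psma1, with 27510.5 in Villin-Cre and 41029.6 in EP4 cKO (0.58), and the smallest that of Psma7, with 50215 and 58579 (0.22). Psma4 was read by 4 probes, which ranged from 0.30 to 0.48. Psma8, the alpha subunit of germ cells, had no probe above background. In the constitutive beta ring the median was 0.20 over 7 genes, from Psmb5 (-0.08) to Psmb2, a non-catalytic subunit with 2723 and 4066 (0.58). The second Psmb2 probe gave 0.54. Psmb11, the beta5 subunit of the thymic cortex, likewise had no probe above background.

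The 19S cap recognises ubiquitin chains, removes them and drives the substrate into the core. Its 6 ATPases, which form the unfolding ring, had a median log2 ratio of 0.15. Psmc2 was the highest, with 23341 in Villin-Cre and 31591 in EP4 cKO (0.44), and Psmc1 the lowest, with 60219 and 60725 (0.01). The 11 non-ATPase subunits, which build the lid and the docking sites, had a median of 0.29. Psmd12, a scaffold subunit of the lid, gave 16909 and 23823 (0.49). Of the 11, 10 were above 0, where 36.3% of all genes were, or 93.0% with the E1A spots. Psmd3, another lid subunit, gave 50405 and 47529, a log2 ratio of -0.08 that was 0.07 with the 75th percentile, 0.02 with a trimmed mean over all spots and 0.98 with the E1A spots. By median, the core (0.33 over 14 genes) and the cap (0.26 over 17 genes) lay close together.

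The 7 genes that help to assemble the proteasome had log2 ratios from -0.29 to 0.63, or from 0.78 to 1.70 with the E1A spots. Of the chaperones of the 19S base, Psmd9 gave 1491 in Villin-Cre and 2309 in EP4 cKO (log2 ratio 0.63), Psmd10, also known as gankyrin, 8408 and 8604 (0.03), and Psmd5 2763 and 2903 (0.07). Psmd9 therefore had a larger log2 ratio than any constitutive subunit. The chaperones of the 20S core had a median of 0.00, with Psmg4 at 1515 and 2174 (0.52) and Psmg2 at 5036 and 4118 (-0.29). Psmg1 and Psmg3 differed by less than 0.05 on the log2 scale. For Psmg1 the sign changed with the probe and with the scaling.

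The remaining activators and the inhibitor differed from PA28 alpha and beta. Psme3, which encodes PA28 gamma, the nuclear member of the family, gave 5445 in Villin-Cre and 3426 in EP4 cKO from its single probe, the lowest log2 ratio of the proteasome genes (-0.67), although it was 0.40 with the E1A spots. Psme4, which encodes the activator PA200, gave 14764 and 17526 (0.25). Psmf1, which encodes the inhibitor PI31, gave 2715 and 2289 (-0.25, but 0.82 with the E1A spots) from its brighter probe and 1087 and 1255 (0.21) from the other. The direction of Psmf1 is thus not settled by these probes. Psmc3ip (0.17) and Psme3ip1 (0.11), which carry the symbols without being subunits, stood between the medians of all genes and of the constitutive subunits.

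**Figure D3:**
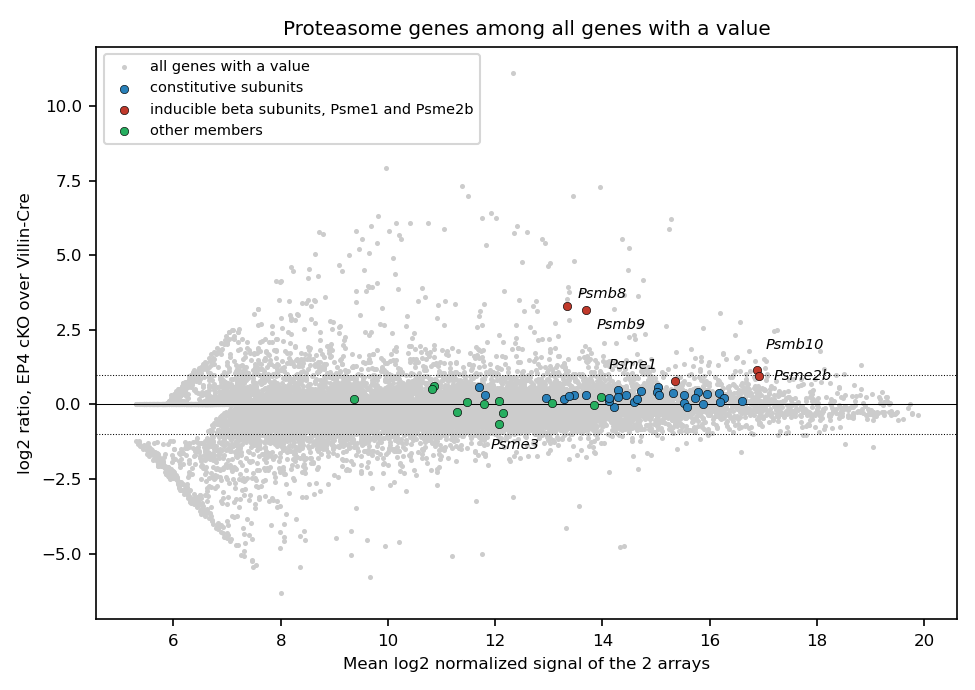
Log2 ratio (EP4 cKO over Villin-Cre) against the mean log2 normalized signal of both arrays, for all 14679 genes with a value (grey) and the 48 proteasome genes (coloured). Dotted lines mark 2-fold. Psmb8 (3.29), Psmb9 (3.16) and Psmb10 (1.14) lie above the upper line, Psme2b (0.95) just under it, and Psme3 (-0.67, but 0.40 when scaled to the E1A spots) is the lowest proteasome gene.

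Agreement between probes gave a measure of error within an array pair. For the 20 proteasome genes with more than 1 probe well above background, the SD of the log2 ratio between the probes of a gene had a median of 0.067 and a maximum of 0.35. The probes of 4 genes disagreed in sign. Psmd2, a large scaffold of the cap base, gave 0.21 from its brightest probe and -0.29 from another, and Psmd13, a lid subunit, gave 0.33 and -0.05. Psmf1 and Psmg1 were the others. Psmb8, Psmb9 and Psmb10 were each read by 1 probe, so they have no such SD. The spread between probes does not cover the spread between mice.

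The genes that act on peptides after the proteasome included 5 of 14 with over 2-fold more signal in EP4 cKO and none with over 2-fold less, beside 4.88% and 7.98% of all genes. The median of their log2 ratios was 0.87. Tap1, the neighbour of Psmb9, gave 1995 in Villin-Cre and 17606 in EP4 cKO (3.14), close to the values of Psmb9 and Psmb8. Tap2 gave 12231 and 30622 (1.32). Both chains of the transporter were thus higher, Tap1 by more. B2m, the light chain of MHC class I, gave 40589.5 and 205450 (2.34), and Tapbpl, an editor of its peptides, gave 1989 and 5942 (1.58). Erap1, which trims peptides in the endoplasmic reticulum, gave 242 and 548 (1.18). The peptidase Nrd1 was the lowest of this list (-0.27).

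Of 12 genes listed for the interferon-gamma route to the inducible subunits, 5 had over 2-fold more signal in EP4 cKO. None had over 2-fold less, beside the same 4.88% and 7.98% of all genes. The median log2 ratio of the 12 was 0.73. The 5 were Stat2, Irf9, Irf1, Ciita and Nlrc5. Stat2 and Irf9, which act together in interferon signalling, gave 2877 in Villin-Cre and 10562 in EP4 cKO (1.88) and 4563 and 15348 (1.75), respectively, while the second Stat2 probe was too dim to give a fold. Irf1, an activator of Psmb9 and Tap1, gave 29301 and 74994 (1.36). Ciita and Nlrc5, the activators of MHC class II and class I genes, were not well above background in Villin-Cre. Measured against the lowest signal well above background, Ciita was at least 63.3-fold higher and Nlrc5 at least 32.1-fold higher, while the second Ciita probe gave a log2 bound of 1.80 and the second Nlrc5 probe was too dim to give one. Ifng itself was dim, with 149 and 177 (0.25), and Irf2 was the lowest of the list (0.14). The receptor genes Ifngr1 (0.26) and Ifngr2 (0.36) and the kinase genes Jak1 (0.17) and Jak2 (0.86) were not past 2-fold. Whether signalling by interferon-gamma itself differed was not tested. By the NRF1 route cells raise all constitutive subunits together when proteasomes are blocked. It had a median of 0.24 over 7 genes and none past 2-fold, beside the same 4.88% and 7.98% of all genes. Nfe2l1, which encodes NRF1, gave 16426 and 11383 (-0.53) from its brighter probe and a log2 ratio of -0.07 from the other, and its partner Maff was the highest (0.73).

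Markers of several cell types also differed between the arrays. All 11 markers of colon epithelium were well above background on both, so the labelled tissue was borne out for its epithelium. Their summed signal was 1.26-fold that of Villin-Cre in EP4 cKO, but 1.09-fold without Krt20, a keratin of surface cells, and their median log2 ratio was 0.10. The 5 measured fibroblast markers, Col1a1, Col1a2, Col3a1, Dcn and Lum, had log2 ratios from -5.77 to -3.15, of which 3 are bounds, with a summed signal of 13068 in Villin-Cre and 290 in EP4 cKO, and Pdgfra was below the limit on both arrays. Of the smooth muscle markers, Actg2 (7308 and 12072) and Tagln (4224 and 5490) were higher and Cnn1 lower (479 and 72.3). The probes of Acta2 disagreed (log2 ratios of 0.62 and -0.58), Des gave no fold and Myh11 was not well above background. Among 4 endothelial markers, Pecam1 alone had a value, with 172 in Villin-Cre and 152 in EP4 cKO. Cdh5, Kdr and Tek were below the limit on both arrays. Markers outside the epithelium were thus detected only in part, and whether the arrays cover all layers of whole colon was not tested.

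Immune cell markers moved unevenly. Of the markers of all leukocytes, 3 of 4 had a value and summed to 1517 and 3390 (2.23-fold), with Coro1a at 828 and 2394, Ptprc at 416 and 813, Laptm5 at 273 and 183, and Cd53 not well above background. The 8 markers of T and NK cells summed to 10873 and 13419 (1.23-fold), a sum led by Cd4 and Cd3e. Cd4 had a log2 ratio of 0.18 from its brighter probe and -1.31, a bound, from the other, and both Cd3e probes were below 0 (-0.10 and -0.79). Of these 8, Cd3g (2.42-fold), Nkg7 (2.67-fold) and Gzmb (at least 4.56-fold) were past 2-fold upward, where 4.88% of all genes were, and the median was 1.46-fold. Markers of B and plasma cells summed to 420 and 596 (1.42-fold, 4 of 7, without Ms4a1, Cd79a and Mzb1). Those of phagocytes summed to 14031 and 19463 (1.39-fold, 5 of 8, without Adgre1, Lyz2 and Fcgr1), with Cd14 (8483 and 15583) and Itgax (152 and 505) higher and Csf1r (4874 and 2817) lower. The part of these cells in the higher signals of Psmb8 and Psmb9 was not tested.

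**Figure D4:**
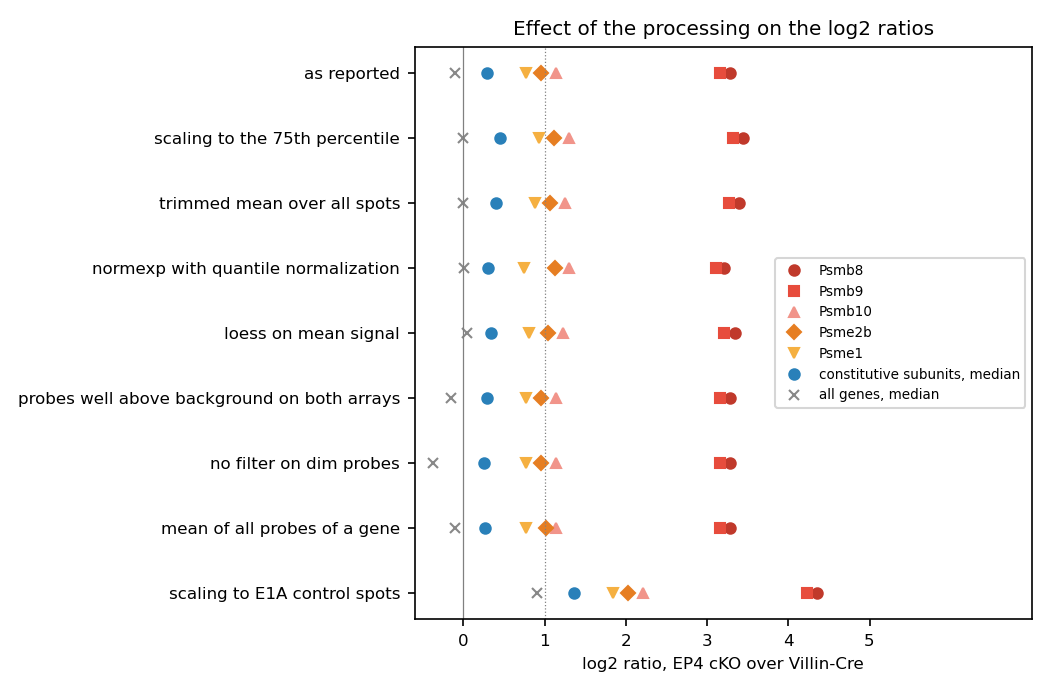
Log2 ratio (EP4 cKO over Villin-Cre) of the inducible genes, and the median log2 ratio of the constitutive subunits and of all genes, under each way of processing the arrays. Psmb8 stays between 3.21 and 4.36 and Psmb9 between 3.11 and 4.23, Psme2b crosses the dotted 2-fold line under some settings, and scaling to the E1A spots moves all values up together.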

How the data were processed

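RNA of whole colon was hybridised to 1 one-colour array per genotype, and the groups were taken from the labels. The authors deposited scanner output in which the intensity of each spot is the processed signal, already background-subtracted by Feature Extraction (12.0.3.1 in the file headers, 11.5.1.1 in the submitters' processing notes). The scaling of their methods was repeated here. Control and outlier spots were left out, spots of a probe were averaged, and each array was scaled to a mean of 2500 over its probes, leaving out the dimmest and the brightest 2%. The factors were 3.45 for Villin-Cre and 2.68 for EP4 cKO.

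A gene was its brightest probe among those well above background on at least 1 array. A dim side was held at a floor, 125 in Villin-Cre and 57.8 in EP4 cKO, so that such ratios are bounds, and ratios with no bound above 1 were set to a log2 ratio of 0. RefSeq accessions without version named 32989 probes (58.3%). Calls were differences of more than 2-fold. The genes named are the immunoproteasome genes and their counterparts, all members past 2-fold, the highest and lowest of each role group, members whose probes disagree in sign and members without a value. In the related lists they are genes past 2-fold and the highest and lowest. A few others, and markers, were named after their values were seen. The members and lists were chosen with earlier results of these data known, and 1 gene of the interferon list is not reported here.

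Alternatives were the 75th percentile, a trimmed mean over all spots, normexp (offset 50, limma 3.58.1 in R 4.3.3, on the median spot signal) with quantile normalization, a loess correction, other filters on dim probes, the mean of all probes and other thresholds. Scaling to E1A control spots and Psme2b for Psme2 were added after seeing the data. The code (Python 3.11.15) was tested on simulated data. The number of arrays limits the precision.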

Additional observations from a re-analysis of the deposited data

How the results depend on the processing

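The difference between the immunoproteasome and constitutive medians (1.86) was 1.91 after normexp with quantile normalization and 0.86 with Psme2b in the place of Psme2. The count of proteasome genes more than 2-fold higher (3) was 43 with the E1A spots, where 41.8% of all genes passed, and 6 at a 1.5-fold threshold, where 9.86% did. It was 4 where Psme2b passed 2-fold. The count of genes more than 2-fold lower (0) was 1 at 1.5-fold, which was Psme3, beside 18.7% of all genes, and 1 with no filter on dim probes, beside 31.7%, which was Psma8, below background on both arrays. Before scaling, 7 E1A probes had a median log2 ratio of -0.71, and scaling to them moved the median of all genes from -0.10 to 0.90. The cause was not tested. Of 384 values recomputed for single proteasome genes, 16 had the opposite sign, in 7 genes (Psmb5, Psmd2, Psmd3, Psme3, Psmf1, Psmg1 and Psmg2). The side of 2-fold was unchanged in 31 of 32 values of the 4 immunoproteasome genes with a probe, the exception being Psme1 with the E1A spots. No array could be left out, and no paired analysis was possible because there was 1 array per genotype. Dim probes limit what can be seen for Psma8 and Psmb11.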

Other observations

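Partners of the proteasome that do not carry its symbols lay on both sides of 0. Of 13 listed, 12 had a value, with a median log2 ratio of -0.02, 5 above 0 (41.7%, where 36.3% of all genes were) and none past 2-fold in either direction, beside 4.88% of all genes upward and 7.98% downward. The highest was Ublcp1, a phosphatase of the 26S proteasome (0.35), and the lowest Akirin2, which brings proteasomes into the nucleus, with 7147 in Villin-Cre and 5246 in EP4 cKO (-0.45). Pomp, the maturation factor of the core, gave 67877 and 79061 (0.22), the ubiquitin receptor Adrm1 11267 and 12996 (0.21), and Sem1, a small lid subunit, 95565 and 110700 (0.21).

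Ubiquitin genes and the factors that shuttle tagged proteins to the proteasome had a median log2 ratio of -0.08 over 13 genes. None was past 2-fold by its brightest probe, beside 4.88% of all genes upward and 7.98% downward. The highest was Ufd1, a cofactor of the segregase Vcp, with 9352 and 12921 (0.47), and the lowest the shuttle Ubqln4, with 597 and 420 (-0.50). A second Ubqln4 probe gave -2.98, and 1 of the other probes of Rad23b, another shuttle, gave -2.67 against 0.34 from its brightest. The difference between these lists and the constitutive subunits was not tested. Scaling to the E1A spots adds 1.07 to each of these log2 ratios and turns the negative ones positive, apart from these dimmer probes of Ubqln4 and Rad23b.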
